A study of Homo sapiens with 34 samples.

Results

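The genes described here are 10 genes that make, break down, carry or read retinoic acid: ALDH1A2, DHRS3, CYP26A1, CYP26B1, CYP26C1, CRABP1, CRABP2, RARA, RARB and RARG. They were chosen by symbol in the deposited gene tables, where each was found under 1 identifier among 37951 gene identifiers. The cells were wild-type ESI017, an established human embryonic stem cell line, sequenced as RNA in 34 libraries: 17 conditions with 2 replicates each, which the series describes as biological replicates. On day 1, cells in E6 medium were taken to 4 primitive streak (PS) populations, collected at 24 h. All 4 were given CHIR99021, a Wnt pathway agonist, at 2 µM for DE(a), 4 µM for APS (anterior PS) and 6 µM for both MPS (mid PS) and PPS (posterior PS). Activin was added at 100 ng/ml for DE(a) and at 30 ng/ml for APS and MPS, and left out for PPS. All except DE(a) also had bFGF at 20 ng/ml, and MPS and PPS had BMP4 at 40 ng/ml. On day 2 each population was moved to 1 of 3 media and collected at 48 h. These were DE(b) medium for definitive endoderm, with 100 ng/ml activin and 250 nM of the BMP inhibitor LDN193189; PM medium for paraxial mesoderm, with LDN193189 at the same dose, bFGF at 20 ng/ml and the activin and TGFβ receptor inhibitor A-8301 at 1 µM; and LM medium for lateral mesoderm, with A-8301 at the same dose, the Wnt secretion inhibitor IWP2 at 4 µM and BMP4 at 30 ng/ml. The methods list no CHIR99021 in PM medium, while a legend in the study's supplement on another experiment does. The study's main text also describes PM induction as combining BMP inhibition with Wnt activation, and refers to strong Wnt activation on day 2 in PM. Whether these PM libraries received CHIR99021 is therefore not settled here. A condition is named by both steps, so that APS-PM is the APS population after PM medium. The undifferentiated control stayed in mTeSR Plus and is labelled 48 h. Against the 24 h populations it therefore differs in time and base medium as well as in the added factors, which cannot be told apart. No retinoic acid and no inhibitor of its synthesis or receptors is listed among the added factors, and the retinoid content of the media is not given in the sources used here.

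Retinoic acid is made from vitamin A in steps: retinol is oxidised to retinaldehyde, which ALDH1A2 oxidises irreversibly to retinoic acid, while DHRS3 reduces retinaldehyde back to retinol. CYP26A1, CYP26B1 and CYP26C1 are cytochrome P450 enzymes that hydroxylate retinoic acid for its removal, CRABP1 and CRABP2 bind it in the cytoplasm, and RARA, RARB and RARG are its nuclear receptors, which act on DNA with retinoid X receptors. In vertebrate embryos ALDH1A2 in the trunk mesoderm and CYP26 enzymes elsewhere are known to set where the signal is present, and CYP26A1 and RARB are known to be direct targets of retinoic acid receptors.

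Levels are given as CPM, estimated counts scaled to a common library total, with the values of replicate 1 and replicate 2 in that order. Library totals ran from 15522780 to 23439799 estimated counts. Comparisons used the quasi-likelihood test of edgeR in 1 model over all 34 libraries with Benjamini-Hochberg adjustment over the 17895 genes that passed the filter on low counts, and rose, fell or changed is used at an adjusted p under 0.05. All adjusted p-values below come from this test. All 10 genes passed the filter, but CYP26C1 never reached an average of 1 CPM and passed through the conditions in which it was high, so its calls, which the counts below include for completeness, support nothing on their own. Folds are 2 to the power of the fitted log2 difference. Where a group was at or under 3 counts in every library, the ratio of summed counts with its exact 95% interval is given instead, as it also is for ALDH1A2, CYP26A1 and CYP26C1 between media, where some libraries were near 0. Such intervals cover counting error only, and an adjusted p beside a ratio is that of the fitted difference. In bulk RNA, fewer cells that express a gene and less RNA per cell cannot be told apart. The summed level of the endoderm markers SOX17, FOXA2, CXCR4 and CER1 was 3453 to 6432 CPM in DE(b) libraries, most of it CER1 (3329 to 6006 CPM), that of TBX6, MSGN1, CDX2 and DLL3 909 to 1589 CPM in PM libraries, and that of HAND1, FOXF1, TBX20 and ISL1 465 to 2324 CPM in LM libraries. Within DE(b) medium the levels of the other endoderm markers differed between populations: FOXA2 stood at 86.0 and 125 CPM in DE(a)-DE(b), 52.9 and 79.1 CPM in APS-DE(b), 17.1 and 37.8 CPM in MPS-DE(b), and 2.17 and 11.0 CPM in PPS-DE(b), and CXCR4 at 168 and 154 CPM in DE(a)-DE(b) against 9.25 and 17.5 CPM in PPS-DE(b). SOX17 stood at 113 and 224 CPM in PPS-DE(b) and at 330.4 CPM or more in the other DE(b) libraries. Against DE(a)-DE(b), 2 of the 4 endoderm markers were lower in PPS-DE(b), and 4 of 4 presomitic and 3 of 4 lateral mesoderm markers were higher (list medians -2.35, 8.42 and 5.59 on the log2 scale). In MPS-DE(b) 1 endoderm marker was lower, and 3 of 4 presomitic markers and 1 of 4 lateral mesoderm markers were higher. The pluripotency markers NANOG and SOX2 summed to 467 and 502 CPM in the control, 11.7 to 185 CPM at 24 h, 11.2 to 151 CPM in DE(b), 0.190 to 18.4 CPM in PM and 0.109 to 30.0 CPM in LM libraries. The 2 libraries of DE(a)-PM stood apart from each other, with SOX17 at 72.7 and 3.75 CPM and FOXA2 at 33.0 and 3.37 CPM. LM libraries also held the amnion markers GATA3, TFAP2A, TFAP2C, VTCN1, GABRP and KRT7 at a summed 67.3 to 389.8 CPM, against 6.44 to 17.9 CPM in PM and 16.5 to 30.7 CPM in DE(b) libraries. The summed neural markers PAX6, SOX1 and NEUROG2 stayed at or under 0.957 CPM in every library.

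ALDH1A2 lies on chromosome 15 (57953424-58497866, minus strand) and CYP26A1 on chromosome 10 (93073475-93077885, plus strand) of GRCh38, as annotated in GENCODE v44. CYP26C1 is the upstream neighbour of CYP26A1 on the same strand (93060798-93069540), with 3934 bases between them. The sequence around the transcription start, 250 bases before to 50 bases after it, was read from RefSeq (GRCh38.p14), which held 19 such windows for the 10 genes. The letters NGTTCA, then any 5 bases, then AGTTCA were searched on both strands. This is a direct repeat of a receptor half-site spaced by 5 bases, the arrangement known from retinoic acid response elements, and its letters were chosen knowing that such elements are known in these genes. It matched 12 of 35116 windows of all genes (0.0342%). Among the 10 genes it matched only the following windows, shown because RARB and CYP26A1 both reached their highest levels in DE(b) medium, with the match in capitals. The RARB window is chr3:25428013-25428312 on the plus strand, and the CYP26A1 window is chr10:93073643-93073942 on the plus strand, where the match reads on the opposite strand.
RARB: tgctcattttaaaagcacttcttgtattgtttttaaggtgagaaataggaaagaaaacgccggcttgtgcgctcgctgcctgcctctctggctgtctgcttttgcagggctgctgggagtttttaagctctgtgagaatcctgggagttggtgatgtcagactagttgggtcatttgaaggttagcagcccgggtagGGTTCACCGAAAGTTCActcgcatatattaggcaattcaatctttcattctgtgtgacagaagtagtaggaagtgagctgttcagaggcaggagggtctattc
CYP26A1: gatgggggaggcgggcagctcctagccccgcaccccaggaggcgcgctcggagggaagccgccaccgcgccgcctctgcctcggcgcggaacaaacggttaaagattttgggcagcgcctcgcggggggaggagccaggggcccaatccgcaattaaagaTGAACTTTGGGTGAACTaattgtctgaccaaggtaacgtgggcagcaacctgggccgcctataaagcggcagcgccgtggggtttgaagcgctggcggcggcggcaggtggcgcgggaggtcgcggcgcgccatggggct
The match began 53 bases before the transcription start of its window in RARB and 90 bases before it in CYP26A1. RARB had 4 windows and CYP26A1 had 2, with a match in 1 of each. Counts per gene do not show which of these starts was used. The form with 2 bases between the same half-sites matched 5 of the 35116 windows and none of the 19. These matches are letters in a window and say nothing of what is bound there.

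ALDH1A2 was high in PM medium and CYP26A1 in DE(b) medium, and no library held both at their high levels. In the 8 PM libraries ALDH1A2 ran from 41.7 to 508 CPM with a median of 235, and CYP26A1 from 0 to 0.940 CPM with a median of 0.0717. In the 8 DE(b) libraries ALDH1A2 ran from 0.0492 to 1.45 CPM with a median of 0.231, and CYP26A1 from 256 to 1093 CPM with a median of 742. The 2 groups of 8 libraries did not overlap for either gene, while LM libraries held 0.361 to 18.0 CPM of ALDH1A2 and 0.206 to 26.5 CPM of CYP26A1, below the high group of each gene and overlapping the low one. Over the 4 day 1 populations, 41828 ALDH1A2 counts in PM libraries stood against 60 in DE(b) libraries, a ratio of 628 (488 to 823) per library total, and the fitted log2 difference was 9.76 (SE 0.37, adjusted p 2.6e-15). For CYP26A1, 103060 counts in DE(b) libraries stood against 46 in PM libraries, a ratio of 2488 (1865 to 3399), and the fitted log2 difference of PM from DE(b) was -11.56 (SE 0.45, adjusted p 4.7e-15). All 46 came from replicate 1 libraries.

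**Figure D1:**
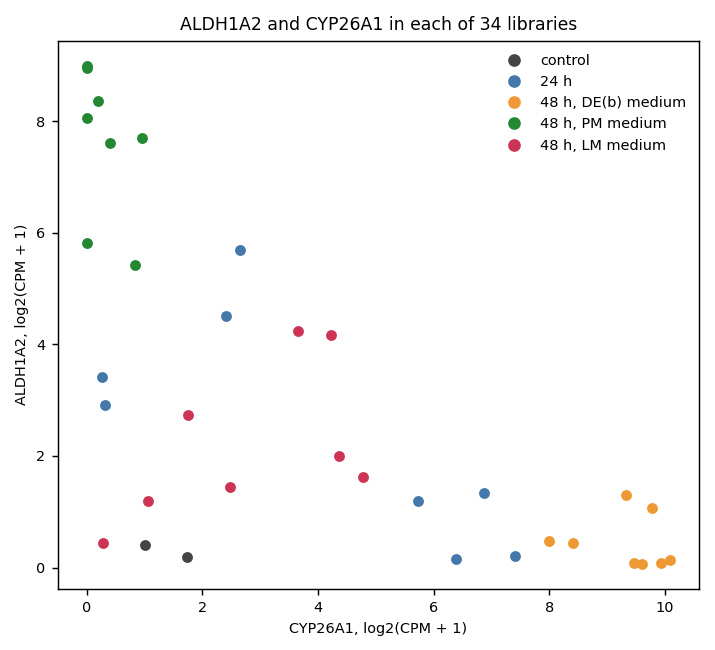
CYP26A1 (horizontal axis) and ALDH1A2 (vertical axis) in each of the 34 libraries, both as log2(CPM + 1), coloured by time and day 2 medium. The 8 PM libraries lie at the upper left and the 8 DE(b) libraries at the lower right, and no library lies at the upper right.

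The division was already present among the 24 h populations. CYP26A1 stood at 168 and 82.4 CPM in DE(a), 116 and 52.1 CPM in APS, 5.28 and 4.32 CPM in MPS, and 0.198 and 0.241 CPM in PPS, against 2.30 and 1.01 CPM in the control. ALDH1A2 stood at 0.156 and 0.107 CPM in DE(a), 1.51 and 1.28 CPM in APS, 50.8 and 21.7 CPM in MPS, and 9.70 and 6.56 CPM in PPS, against 0.135 and 0.319 CPM in the control. CYP26A1 was high in both populations that received no BMP4, and ALDH1A2 was highest in MPS and next in PPS, the populations that received it. MPS and PPS also had more CHIR99021 (6 µM against 2 and 4 µM), so the 2 factors cannot be told apart in this division. Against the control, CYP26A1 rose in DE(a) (log2 difference 6.31, SE 0.68, adjusted p 5.1e-07) and APS (5.72, SE 0.67, adjusted p 1.1e-06). It did not pass the test in MPS (1.61, SE 0.67, adjusted p 0.075) or PPS (-2.89, SE 1.11, adjusted p 0.053). ALDH1A2 rose in APS (2.71, SE 0.88, adjusted p 0.027), MPS (7.42, SE 0.70, adjusted p 3.6e-08) and PPS (5.19, SE 0.74, adjusted p 1.1e-05). The APS call for ALDH1A2 was lost when any 1 of its 4 libraries was left out.

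Between neighbouring populations, the step from APS to MPS, which adds BMP4 and more CHIR99021, brought ALDH1A2 up by 4.72 (SE 0.55, adjusted p 1.9e-05) and CYP26A1 down (-4.11, SE 0.60, adjusted p 0.00026) on the log2 scale. These were the 2 of the 10 genes called there, where 2.93% of all tested genes were called. From MPS to PPS, which removes activin, both fell: ALDH1A2 by -2.23 (SE 0.46, adjusted p 0.0047) and CYP26A1 by -4.51 (SE 0.96, adjusted p 0.006). Each of these calls was lost without MPS replicate 1 or PPS replicate 2, with adjusted p-values of up to 0.18 for ALDH1A2 and 0.080 for CYP26A1. RARG rose between the same populations, and these 3 of the 10 genes stood against 6.14% of all genes. From DE(a) to APS none of the 10 was called, where 0.732% of all genes were.

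Against the control as a whole, 7 of the 10 genes were called in DE(a), 8 in APS, 6 in MPS and 5 in PPS. The shares of all tested genes called were 19%, 24.5%, 30% and 29.8%, of which 10.3%, 13.6%, 16.5% and 16.4% were higher and 8.68%, 11%, 13.4% and 13.4% lower. The 4 comparisons share the control libraries, so they are not independent of each other.

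**Figure D2:**
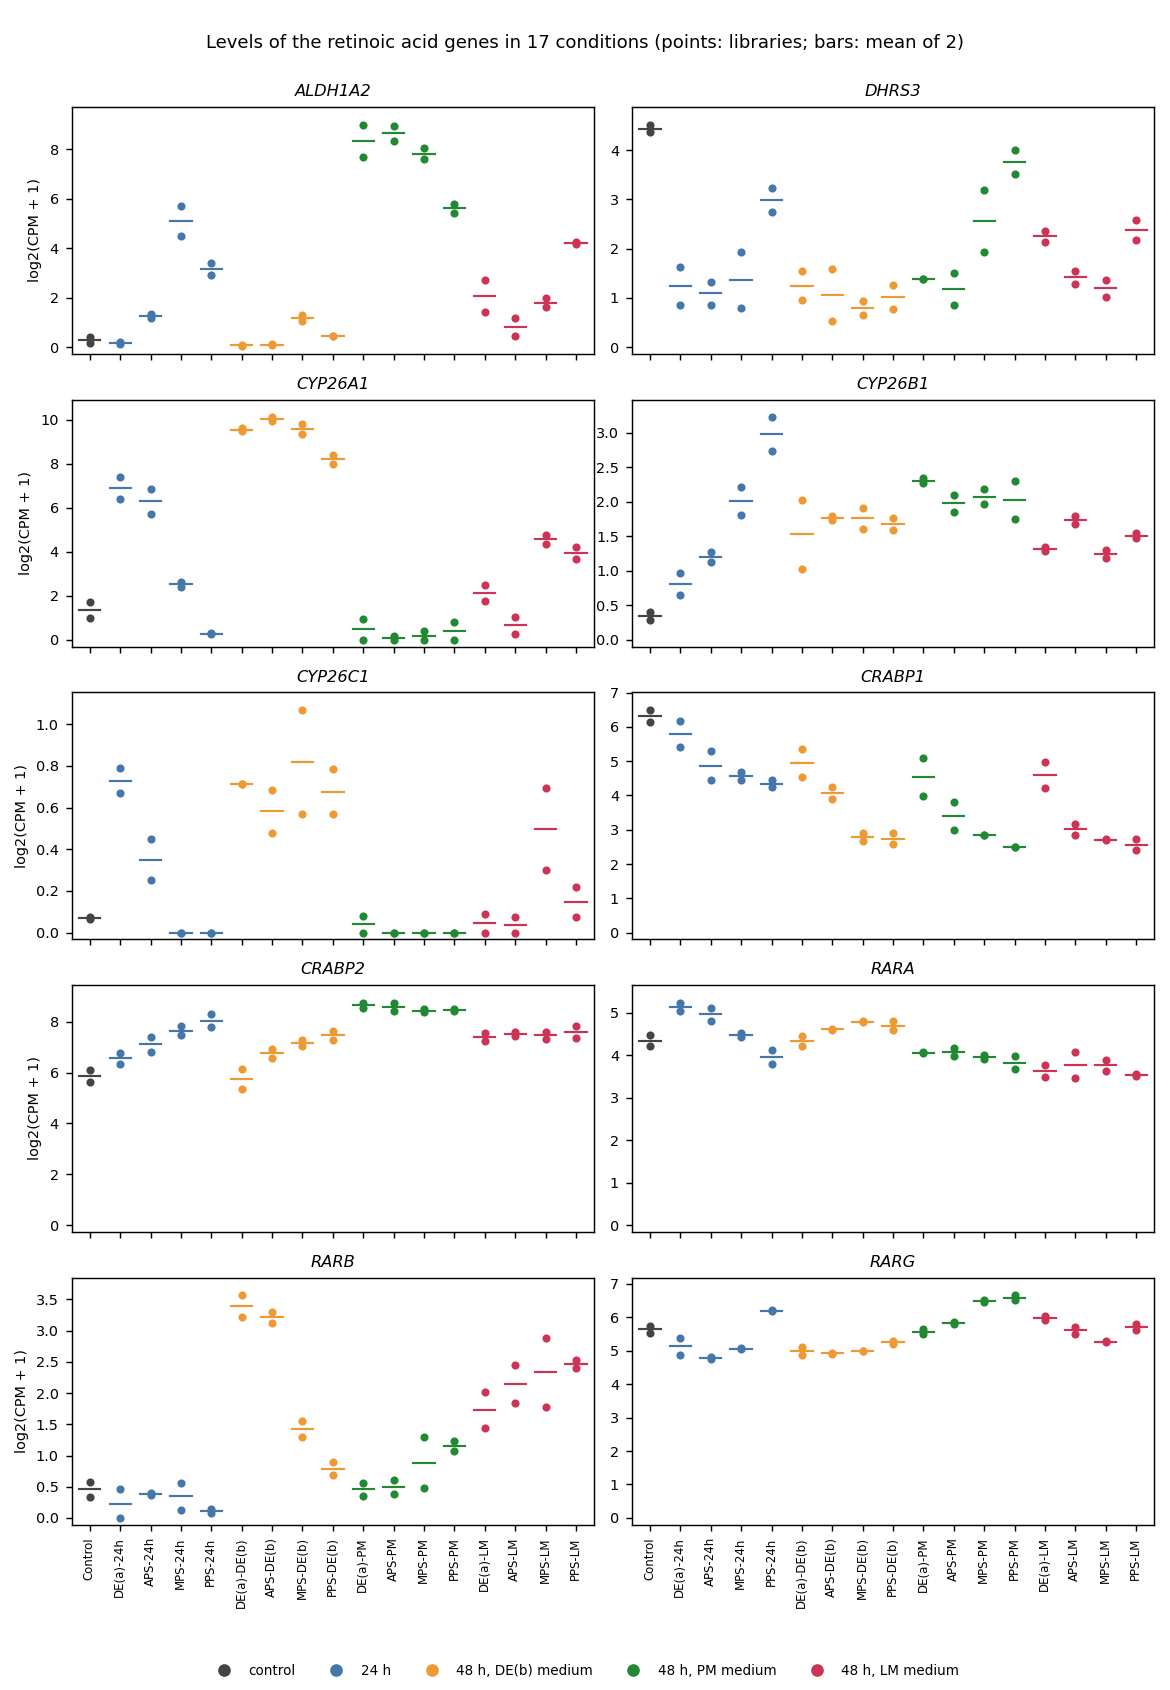
Level of each of the 10 genes as log2(CPM + 1) in the 17 conditions. Points are single libraries, bars the mean of 2, colours the time and day 2 medium, and each panel has its own vertical scale. ALDH1A2 is highest in the 4 PM conditions, CYP26A1 in the 4 DE(b) conditions and RARB in DE(b) medium from DE(a) and APS.

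On day 2, ALDH1A2 rose in PM medium from all 4 populations, including those where it had been near the floor at 24 h. It reached 207 and 508 CPM in DE(a)-PM, 327 and 495 CPM in APS-PM, 194 and 263 CPM in MPS-PM, and 41.7 and 55.1 CPM in PPS-PM. DE(a)-PM overlapped both APS-PM and MPS-PM. Both MPS-PM libraries lay below both APS-PM libraries, a difference that was not called, and both PPS-PM libraries lay below all the others. The rise over the same population at 24 h was largest from DE(a), where the ratio was 2610 (1118 to 8039), and was 273-fold in APS and 5.82-fold in both MPS and PPS (adjusted p 1.5e-09, 7.9e-09, 0.00024 and 0.0004). The level in PPS-PM was 8.39-fold below that of APS-PM, the standard protocol for paraxial mesoderm (log2 difference -3.07, SE 0.46, adjusted p 0.00021), and this call held without each of the 4 libraries. The replicate of DE(a)-PM with the lower ALDH1A2 was the one with the higher SOX17 and FOXA2, whose part in the level was not tested.

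In DE(b) medium ALDH1A2 went the other way. In MPS it fell to 1.45 and 1.1 CPM (29.8-fold, adjusted p 1.3e-06) and in PPS to 0.384 and 0.364 CPM (20.8-fold, adjusted p 6.7e-05). In APS it fell to 0.0551 and 0.0987 CPM, a ratio of 17.9 (5.83 to 89.1) at an adjusted p of 0.0068 that rose to 0.056 without APS-DE(b) replicate 1. DE(a) was at the floor at both times.

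In LM medium ALDH1A2 changed in different directions by population. It rose from DE(a) to 1.71 and 5.63 CPM, a ratio of 30.0 (12.6 to 93.8) at an adjusted p of 0.0003, and fell from MPS to 2.98 and 2.09 CPM (14.7-fold, adjusted p 5.2e-06). In APS-LM it stood at 0.361 and 1.29 CPM (log2 difference -0.81 against 24 h, SE 0.70, adjusted p 0.40). PPS-LM held the most, 18.0 and 16.9 CPM, above both PPS libraries at 24 h, a difference that did not pass the test (log2 difference 1.14, SE 0.46, adjusted p 0.075). Its level was 6.88-fold above MPS-LM, the standard protocol for lateral mesoderm (adjusted p 0.0015). The amnion markers GATA3 and TFAP2A were at 107 and 136 CPM and at 113 and 167 CPM in PPS-LM, against 36.2 and 63.1 CPM and 30.6 and 35.4 CPM in MPS-LM, and their part in the difference was not tested.

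CYP26A1 mirrored these moves in DE(b) medium. It reached 774 and 710 CPM in DE(a)-DE(b), 984 and 1093 CPM in APS-DE(b), 640 and 877 CPM in MPS-DE(b), and 256 and 338 CPM in PPS-DE(b). PPS-DE(b) lay below the other 3 in both libraries, but the difference from DE(a)-DE(b) did not pass the test (log2 difference -1.28, SE 0.51, adjusted p 0.093). The rise over 24 h was 5.63-fold in DE(a), 12-fold in APS and 150-fold in MPS, with adjusted p-values of 0.0013, 4.1e-05 and 6.8e-08. From PPS, where 24 h libraries held 0.198 and 0.241 CPM, the fitted rise was the largest of the 4 (log2 difference 10.42, SE 0.89, adjusted p 2.6e-08).

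In PM medium CYP26A1 was near or at 0 from every population. The 4 replicate 1 libraries held 0.940, 0.143, 0.315 and 0.779 CPM in DE(a)-PM, APS-PM, MPS-PM and PPS-PM, and all 4 replicate 2 libraries held 0. The falls from 24 h were called in DE(a), APS and MPS (adjusted p 1.7e-07, 1.2e-07 and 0.0012). In PPS, already low at 24 h, it did not pass (adjusted p 0.75).

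In LM medium CYP26A1 ended low from the populations where it had been high, and rose from those where it had been low. It fell to 4.58 and 2.36 CPM in DE(a)-LM (40.2-fold, adjusted p 1.6e-06) and to 0.206 and 1.07 CPM in APS-LM (135-fold, adjusted p 2.3e-07). It rose to 19.5 and 26.5 CPM in MPS-LM (4.75-fold, adjusted p 0.0045) and to 11.6 and 17.7 CPM in PPS-LM (67.7-fold, adjusted p 2.3e-05). The MPS call was lost with DESeq2 and without MPS replicate 2. DE(a)-LM and APS-LM lay 7.37-fold and 37.3-fold below MPS-LM (adjusted p 0.0019 and 0.00027), the opposite of 24 h, when DE(a) and APS were above MPS.

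The other CYP26 enzymes, CYP26B1 and CYP26C1, were low throughout. CYP26B1 rose over the control in all 4 populations at 24 h, in the order of the populations, with means of 0.768, 1.30, 3.08 and 6.996 CPM in DE(a), APS, MPS and PPS against 0.272 CPM in the control. Its log2 differences were 1.58 (SE 0.49), 2.32 (SE 0.48), 3.57 (SE 0.48) and 4.68 (SE 0.49), with adjusted p-values of 0.026, 0.00087, 5.1e-06 and 2e-07, and the steps between neighbouring populations did not pass the test. The DE(a) call was lost without either control library, without DE(a) replicate 2, with no filter, with DESeq2 and with only the libraries compared. At 48 h CYP26B1 stayed between 1.03 and 4.10 CPM, and PM stood 1.83-fold above LM (adjusted p 0.0015). CYP26B1 had its highest level in PPS at 24 h, the condition in which CYP26A1 was lowest at that time.

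CYP26C1, the neighbour of CYP26A1, was at about 1 CPM or less in every library. DE(b) libraries held 0.395 to 1.1 CPM, and PM libraries 0 to 0.0561 CPM. In counts, 91 in DE(b) libraries stood against 1 in PM and 23 in LM libraries, a ratio of 4.09 (2.57 to 6.78) between DE(b) and LM. It passed the filter through the conditions in which it was high, so its differences are given as a description only.

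DHRS3, the reductase that returns retinaldehyde to retinol, was highest in the control. The control libraries held 21.8 and 19.6 CPM, more than any other library. At 24 h it stood at 2.09 and 0.806 CPM in DE(a), 1.49 and 0.824 CPM in APS, 0.747 and 2.80 CPM in MPS, and 8.38 and 5.73 CPM in PPS. It fell 13.4-fold, 16.7-fold and 11.0-fold in the first 3 (adjusted p 0.0004, 0.00014 and 0.00043), while the difference in PPS did not pass (log2 difference -1.53, adjusted p 0.071).

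On day 2 DHRS3 was called in 1 of the 12 comparisons with 24 h, a fall from PPS to PPS-DE(b) of 6.51-fold (adjusted p 0.0067, and 0.11 without PPS-DE(b) replicate 1). In PM medium PPS again stood highest of the 4 populations, while DE(a)-PM and APS-PM overlapped. The levels were 1.60 and 1.63 CPM in DE(a)-PM, 0.813 and 1.83 CPM in APS-PM, 2.84 and 8.15 CPM in MPS-PM, and 15.1 and 10.4 CPM in PPS-PM. PPS-PM was 9.60-fold above APS-PM (adjusted p 0.0048), a call lost without APS-PM replicate 1 and when only those 4 libraries were used. DHRS3 and ALDH1A2 differed in opposite directions between PPS-PM and APS-PM.

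CRABP1 and CRABP2, the carriers, differed from the control in opposite directions at 24 h. CRABP2 rose over the control in all 4 populations, from 68.3 and 48.3 CPM in the control to 108 and 80.1 CPM in DE(a), 169 and 112 CPM in APS, 227 and 176 CPM in MPS, and 311 and 221 CPM in PPS. The folds were 1.72, 2.55, 3.70 and 4.64 (adjusted p 0.034, 0.00041, 7.2e-06 and 1.2e-06), the first lost without DE(a) replicate 1 or control replicate 2. CRABP1 went from 88.7 and 69.3 CPM in the control to 38.1 and 20.7 CPM in APS, 24.5 and 21.1 CPM in MPS, and 20.8 and 18.0 CPM in PPS, falls of 2.54-fold, 3.23-fold and 4.00-fold (adjusted p 0.0083, 0.0011 and 0.00027). The APS call was lost without control replicate 1 or APS replicate 2. In DE(a) it stood at 71.4 and 41.7 CPM and did not pass the test. Replicate 1 was above replicate 2 in 15 of 17 conditions for CRABP1, CRABP2 and RARG alike, and what this adds to the spread is counted in the test.

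At 48 h CRABP2 was highest in PM medium from every population. Its 8 PM libraries ran from 331 to 427 CPM, above every other library of the series, against 150 to 228 CPM in LM and 40.4 to 199 CPM in DE(b) libraries. PM stood 3.21-fold above DE(b) (adjusted p 4.2e-10) and 1.97-fold above LM (adjusted p 1.4e-06). Within DE(b) medium CRABP2 kept the order of day 1, from 68.7 and 40.4 CPM in DE(a)-DE(b) to 199 and 157 CPM in PPS-DE(b), 3.36-fold apart (adjusted p 5.4e-05).

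CRABP1 fell further on day 2 in 10 of the 12 comparisons with 24 h, all except those to DE(b) medium from DE(a) and APS, and 4 of these calls (PPS-DE(b), DE(a)-PM, APS-PM and DE(a)-LM) were lost when a library was left out. It did not pass the test between any 2 media, and the populations kept their order instead: in DE(b) medium 39.6 and 22.4 CPM from DE(a) against 5.04 and 6.43 CPM from PPS (5.26-fold, adjusted p 0.00014), and in LM medium 30.2 and 17.6 CPM from DE(a) against 5.65 and 5.48 CPM from MPS (3.95-fold, adjusted p 0.00095). NANOG and SOX2, which like CRABP1 were highest in the control, were both higher in DE(a)-LM than in MPS-LM (median log2 difference 5.33) and both lower in PPS-DE(b) than in DE(a)-DE(b) (-3.58), and 3 of 4 endoderm markers were higher in DE(a)-LM than in MPS-LM (median 6.76). Their part in the CRABP1 order was not tested. Per kilobase of the annotated canonical transcript, CRABP1 was the most abundant of the 10 transcripts in the control (107 CPM per kb), CRABP2 in all 4 populations at 24 h and in all PM and LM conditions (389 CPM per kb in APS-PM), and CYP26A1 in DE(a)-DE(b), APS-DE(b) and MPS-DE(b) (491 CPM per kb in APS-DE(b)). In PPS-DE(b) CRABP2 again came first, at 183 CPM per kb against 140 for CYP26A1.

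Of the receptors, RARA and RARG were present in every library and RARB was low. RARA ran from 10.03 to 36.7 CPM. It rose over the control at 24 h in DE(a) (36.7 and 31.9 against 21.3 and 17.6 CPM, 1.88-fold, adjusted p 0.0033) and APS (27.2 and 33.7 CPM, 1.66-fold, adjusted p 0.014), and each call was lost without control replicate 2. The APS call was also lost without APS replicate 2. At 48 h RARA was lower in PM and LM than in DE(b) medium, 1.65-fold and 1.96-fold (adjusted p 8.4e-06 and 1.4e-07).

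RARG ran the other way. At 24 h it was 1.33-fold, 1.75-fold and 1.42-fold lower than in the control in DE(a), APS and MPS (adjusted p 0.026, 5.7e-05 and 0.0043). The DE(a) and MPS calls were lost without control replicate 1 and with no filter. The DE(a) call was also lost without DE(a) replicate 2 and with only the libraries compared. RARG was higher in PPS, at 73.3 and 72.0 CPM against 52.8 and 45.5 CPM (1.5-fold, adjusted p 0.0013), and PPS stood 2.13-fold above MPS (adjusted p 1.5e-05). At 48 h PM libraries held 43.9 to 99.5 CPM, DE(b) libraries 28.5 to 38.1 CPM and LM libraries 37.0 to 64.2 CPM. PM was 2.06-fold above DE(b) (adjusted p 1.2e-11), and MPS-PM and PPS-PM, at 86.8 and 91.0 and at 99.5 and 90.9 CPM, were 1.60-fold and 1.72-fold above APS-PM (adjusted p 0.016 and 0.00057), calls that were lost when only the libraries compared were used, and the first also without any 1 of them.

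RARB was at or under 0.497 CPM in all control and 24 h libraries, and its level after day 2 depended on both days. In DE(b) medium it reached 10.8 and 8.30 CPM from DE(a) and 8.89 and 7.69 CPM from APS, but 1.45 and 1.93 CPM from MPS and 0.865 and 0.606 CPM from PPS. The populations that had been high in CYP26A1 at 24 h were the ones high in RARB in DE(b) medium, although CYP26A1 itself was high from all 4 there. The same populations differed in their markers: MPS-DE(b) and PPS-DE(b) held FOXA2 and CXCR4 at lower levels than DE(a)-DE(b), and 3 and 4 of the 4 presomitic markers were higher there, and NANOG and SOX2 were both lower (median -2.89 and -3.58). The other endoderm markers, SOX17 and CER1, had their highest means of the series in MPS-DE(b), 472 and 5674 CPM. Only 1 of the 4 endoderm markers was called lower in MPS-DE(b). The part of these in the RARB level was not tested. MPS-DE(b) and PPS-DE(b) lay 5.63-fold and 12.5-fold below DE(a)-DE(b) (adjusted p 0.038 and 0.0014), the first call lost without any 1 of its 4 libraries. The rises from MPS and PPS over 24 h (adjusted p 0.022 and 0.023) were lost when some single libraries were left out, and those from DE(a) and APS (adjusted p 4.8e-05 and 0.00011) were not.

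In LM medium RARB rose over 24 h from every population. It reached 1.72 and 3.06 CPM from DE(a), 2.59 and 4.46 CPM from APS, 6.40 and 2.42 CPM from MPS, and 4.27 and 4.8 CPM from PPS (adjusted p 0.0023, 0.0012, 0.00063 and 7e-05). MPS-LM overlapped each of the other 3, and none of them passed the test against it. In PM medium it stayed at 0.281 to 1.45 CPM and was called in PPS-PM only, where the ratio to 24 h was 15.0 (4.88 to 75.1) and the call was lost without PPS replicate 2. Over the 4 populations, LM stood 5.78-fold and DE(b) 5.06-fold above PM (adjusted p 5.9e-06 and 1.9e-05). The DE(b) difference did not hold from each population. From PPS, RARB was higher in PM (1.34 and 1.09 CPM) than in DE(b) medium (0.865 and 0.606 CPM). From MPS the libraries of PM (1.45 and 0.390 CPM) and DE(b) medium (1.45 and 1.93 CPM) overlapped. RARB was at or under 1.45 CPM in PM, the medium where ALDH1A2 was highest.

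**Figure D3:**
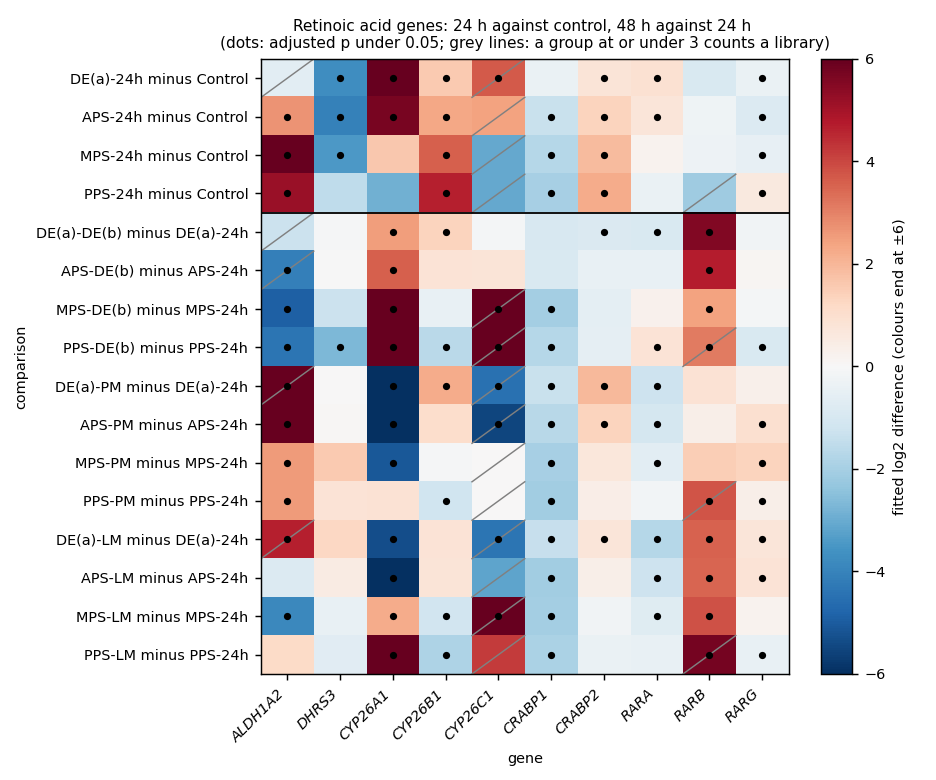
Fitted log2 differences of the 10 genes (columns) at 24 h against the control (upper 4 rows) and at 48 h against the same population at 24 h (lower 12 rows), red for higher and blue for lower, with colours ending at ±6. Black dots mark an adjusted p under 0.05 and grey lines comparisons with a group at or under 3 counts in each library, where the fitted size depends on the handling of low counts. CYP26A1 rises in all 4 DE(b) comparisons and ALDH1A2 in all 4 PM comparisons.

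Counted over the 12 comparisons of 48 h with 24 h, CYP26A1 was called in 11, CRABP1 in 10, ALDH1A2 and RARB in 9 each, RARA in 8, RARG in 7, CYP26B1 and CYP26C1 in 6 each, CRABP2 in 4 and DHRS3 in 1. From DE(a), APS, MPS and PPS in that order, DE(b) medium changed 5, 3, 5 and 9 of the 10 genes, where 28%, 30.6%, 27.9% and 20.5% of all genes were called. PM medium changed 7, 7, 5 and 5, against 23.6%, 25.1%, 22.6% and 20.2%. LM medium changed 8, 5, 7 and 5, against 32.2%, 37.2%, 31.3% and 25%. In APS-DE(b) the share of the 10 genes called was near that of all genes, and in PPS-DE(b) it was highest.

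Between media, over the 4 populations, 8 of the 10 genes were called between PM and DE(b), 4 higher in PM (ALDH1A2, DHRS3, CRABP2 and RARG) and 4 lower (CYP26A1, CYP26C1, RARA and RARB), with 43% of all genes called, 21.6% higher and 21.4% lower. Between LM and PM 7 were called, 3 higher in LM (CYP26A1, CYP26C1 and RARB) and 4 lower (ALDH1A2, CYP26B1, CRABP2 and RARG), with 42% of all genes called, 21% higher and 21% lower. Between LM and DE(b) 7 were called, 4 higher in LM (ALDH1A2, DHRS3, CRABP2 and RARG) and 3 lower (CYP26A1, CYP26C1 and RARA), with 39.6% of all genes called, 19.8% higher and 19.8% lower. The median log2 difference of the 10 genes was 0.06, -0.34 and -0.09 in these comparisons, beside 0.01, 0.00 and 0.02 over all genes, so that they split in direction rather than moving as a group. The 3 comparisons share their libraries in pairs. Each is a mean over the 4 populations and need not hold from each of them. Between PM and DE(b), DHRS3 libraries overlapped from DE(a) and APS, and RARB was higher in PM from PPS.

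**Figure D4:**
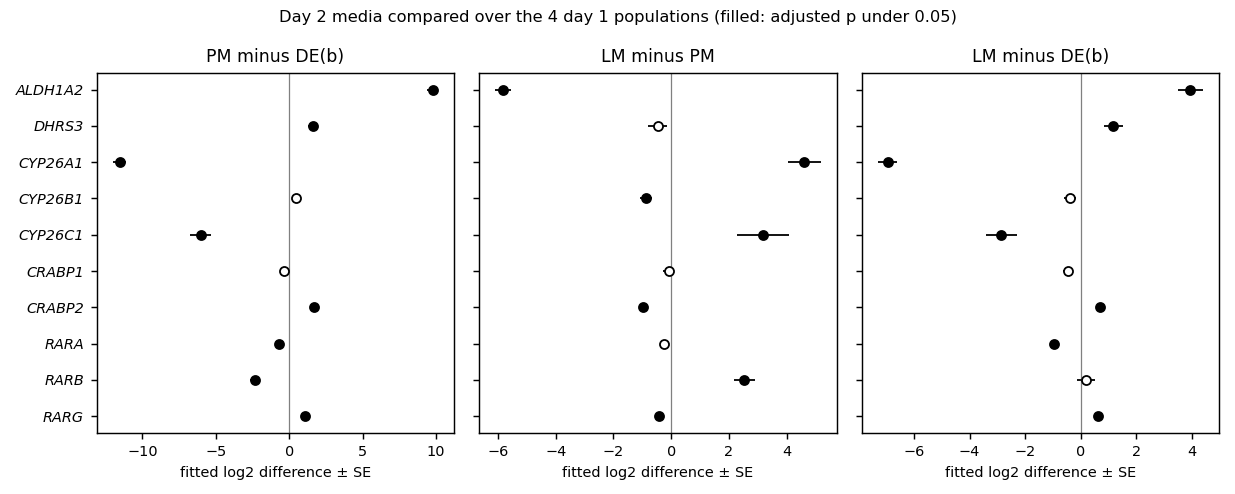
Fitted log2 differences with their SE (bars) between day 2 media for each of the 10 genes, as the mean over the 4 day 1 populations. Filled points have an adjusted p under 0.05. ALDH1A2 and CYP26A1 lie at opposite ends in each panel.

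Against the standard protocol of each fate (APS-PM, MPS-LM and, for endoderm, DE(a)-DE(b)), 17 of 90 tests of the 10 genes were called. In DE(b) medium none was called from APS, 4 from MPS and 3 from PPS, where 0.469%, 5.59% and 17.4% of all genes were called. CRABP1, CRABP2 and RARB were called from both MPS and PPS, and ALDH1A2 from MPS, a call at low counts (24 and 17 against 1 and 1) lost without any 1 of the 4 libraries. In PM medium none was called from DE(a), RARG from MPS, and ALDH1A2, DHRS3 and RARG from PPS, where 0.0559%, 0.447% and 5.26% of all genes were called. In LM medium 3 were called from DE(a) (CRABP1, CYP26A1 and RARG), CYP26A1 from APS, and ALDH1A2 and RARG from PPS, where 14.4%, 3.79% and 5.6% of all genes were called.

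Whether the day 2 medium acted alike on the 4 populations was tested as an interaction over the 12 conditions at 48 h. It was called for 6 of the 10 genes, ALDH1A2, RARG, CYP26A1, RARB, CRABP2 and DHRS3, against 13.1% of all genes. CRABP1, CYP26B1, CYP26C1 and RARA did not pass (adjusted p 0.76, 0.81, 0.39 and 0.69).

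Among 25 other genes of retinoid uptake, storage, conversion and receptor function, 22 were tested, RXRB being left out for its several identifiers and BCO1 and TTR for low counts. At 24 h, of the 22 genes, 4 rose and 2 fell in DE(a), 5 and 2 in APS, 7 and 3 in MPS, and 6 and 1 in PPS, beside the shares of all genes given above (10.3% to 16.5% higher and 8.68% to 13.4% lower), with list medians of the log2 difference between 0.06 and 0.25 beside 0.00 to 0.03 over all genes. LRAT, which esterifies retinol for storage, went from 66.3 and 92.4 CPM in the control to between 0.840 and 5.95 CPM in the 24 h libraries (log2 differences -3.93 in DE(a) and APS, -5.06 in MPS and -6.18 in PPS, adjusted p 0.0001, 7.4e-05, 5.3e-06 and 1.1e-06). RXRG, a retinoid X receptor, was at 0 in both control libraries and rose in all 4 populations, to at most 3.29 CPM at 24 h (adjusted p 0.0036, 0.0022, 0.0038 and 0.02).

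Between media, 4 of the 22 were higher in PM than in DE(b) and 3 lower (median 0.04), 5 were higher in LM than in PM and 7 lower (median 0.02), and 3 were higher in LM than in DE(b) and 5 lower (median -0.12). Of all genes, 21.6%, 21% and 19.8% were higher and 21.4%, 21% and 19.8% lower in the same order, so that the share of this list between PM and DE(b) was under that of all genes in both directions. STRA6, the cell surface receptor that takes up retinol from its plasma carrier, was the clearest of those higher in PM. It ran from 176 to 463 CPM in PM libraries, against 16.1 to 62.6 CPM in DE(b) and 18.6 to 32.2 CPM in LM libraries (log2 difference 3.22, SE 0.17, for PM against DE(b) and -3.52, SE 0.18, for LM against PM, adjusted p 1.2e-12 and 3.4e-13). Every PM library was above every other library of the series for STRA6, as it was for ALDH1A2 except in PPS-PM. ALDH1A3, another retinaldehyde dehydrogenase, was higher in DE(b) medium than in the other media, at 31.7 and 39.6 CPM in DE(a)-DE(b), 44.2 and 46.8 CPM in APS-DE(b), 22.7 and 30.7 CPM in MPS-DE(b), and 4.58 and 6.75 CPM in PPS-DE(b) (log2 difference -3.95, SE 0.30, for PM and -3.87, SE 0.30, for LM against DE(b), adjusted p 3e-10 and 3.7e-10). RDH10, which oxidises retinol to retinaldehyde, stood at 15.5 to 28.0 CPM in LM libraries against 6.87 to 10.4 CPM in DE(b) and 7.47 to 12.3 CPM in PM libraries (log2 difference 1.48 and 1.28, SE 0.14 each, adjusted p 9.9e-09 and 7.7e-08). Of these 3 enzymes of retinoic acid synthesis, ALDH1A2 was highest in PM, ALDH1A3 in DE(b) and RDH10 in LM medium.

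CYP1B1, a cytochrome P450 that can act on retinol, was at 49.3 and 167 CPM in the APS-PM replicates and at 18.5 and 15.8 CPM in the APS-LM replicates, so that its replicates lay far apart in some conditions and close in others. Its difference between PM and DE(b) did not pass the test (adjusted p 0.29), nor did that between LM and PM (adjusted p 0.45).

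**Figure D5:**
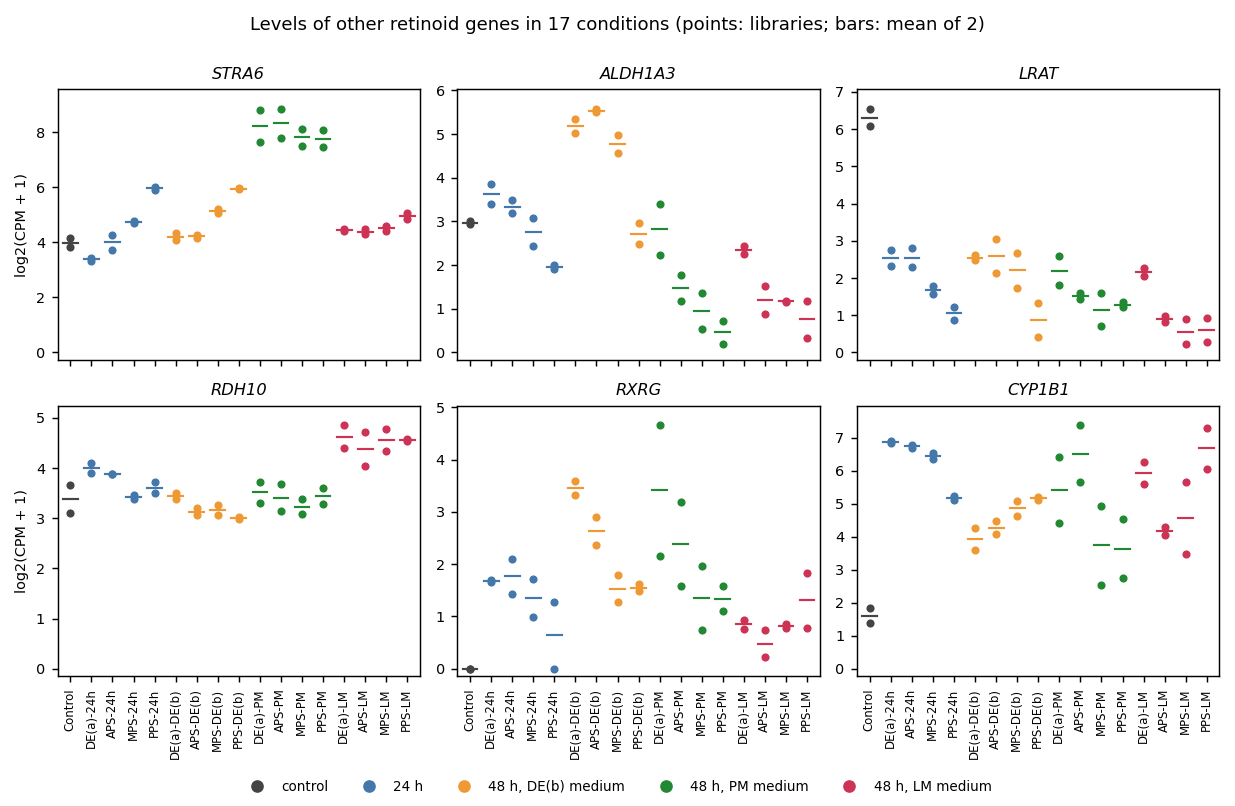
Levels of STRA6, ALDH1A3, LRAT, RDH10, RXRG and CYP1B1 as log2(CPM + 1) in the 17 conditions, with points for libraries, bars for the mean of 2 and colours for the time and day 2 medium. STRA6 is highest in the 4 PM conditions, LRAT in the control and RDH10 in the 4 LM conditions.

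Of 14 genes listed as known retinoic acid targets, 11 were tested, and over the control at 24 h 4 of them rose in DE(a), 6 in APS, 9 in MPS and 7 in PPS while none fell, where 10.3%, 13.6%, 16.5% and 16.4% of all genes rose and 8.68%, 11%, 13.4% and 13.4% fell. Between PM and DE(b) 8 were higher in PM and none lower (median 3.37, beside 0.01 over all genes), where 21.6% of all genes were higher and 21.4% lower. The list leaves out CYP26A1 and RARB, the direct targets named above. Both were lower in PM than in DE(b) over the 4 populations, although RARB was higher in PM from PPS. Between LM and PM 4 were higher in LM and 6 lower (median -1.92), where 21% of all genes were called in each direction. HOXB1 was at 108 to 247 CPM in PM libraries and at most 2.17 CPM in DE(b) libraries (adjusted p 6.7e-15), and CDX1, at 0 in the control, was at 111 to 205 CPM in MPS and PPS at 24 h. TGM2 was the listed target most raised in LM over PM medium (log2 difference 2.05, SE 0.30, adjusted p 7.3e-06), at 32.4 and 25.5 CPM in PPS-LM. Many of these genes are also known targets of Wnt and FGF signals, which the media changed.

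As a description of likeness, log2(CPM + 1) means over the 17 conditions were correlated with those of 12263 genes that reached 10 CPM in a condition. The conditions share media and populations, and the libraries of a condition their depth. The genes most like ALDH1A2 were SAT1, RAB30 and HOXB1 (Pearson's r 0.95, 0.93 and 0.92), and those most like CYP26A1 were ZNF792, LMX1B and PCDH20 (0.95, 0.93 and 0.93). CRABP1 was closest to UNC13A, DCX and ZSCAN10 (0.96, 0.94 and 0.94) and CRABP2 to BLMH, LDB2 and TOPBP1 (0.94, 0.94 and 0.93). DHRS3 was closest to SAMHD1, ZNF252P and SCAF8 (0.88, 0.85 and 0.85), RARA to GTPBP1, OPA1 and CLN8 (0.92 each) and RARG to INAVA, MYH6 and COMMD4 (0.90, 0.89 and 0.89). CYP26B1, CYP26C1 and RARB stayed under 10 CPM and were not correlated. Among the other 7 of the 10 genes, the highest coefficient was that of ALDH1A2 with CRABP2 (0.84) and the lowest that of CYP26A1 with RARG (-0.79).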

How the data were processed

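RNA from 34 libraries was compared. According to the study's methods, the authors quantified reads with Salmon (1.10.2 in the submitters' processing notes, which also list R 4.4.2) against GRCh38 with sequence and GC bias correction. The deposited values are estimated counts per gene, normalized for neither depth nor length. Replicates 1 and 2 were deposited in separate tables, each with 1 library of every condition.

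CPM used library totals. Counts were rounded, filtered with filterByExpr by condition (17895 of 37951 genes) and tested with edgeR 4.0.16 in R 4.3.3, with TMM normalization, 1 mean per condition, a common dispersion of 0.0611 and 17 residual degrees of freedom. The steps were tested on simulated data. The other genes named are, per list and comparison, the largest called rise and fall reaching 10 CPM; CYP1B1, SOX17, FOXA2, GATA3 and TFAP2A were named after their values were seen, and some listed genes are not reported here singly. The 10 genes and all lists were chosen with earlier results of these data known. Transcript lengths came from GENCODE v44. Alternatives were RLE size factors, library totals, no filter, a replicate block, only the libraries compared, a fold of at least 2, DESeq2 1.42.0, TMM-scaled levels, and each library left out.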

Additional observations from a re-analysis of the deposited data

Results flagged for a closer look

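For 6 of the 10 genes the effect of the day 2 medium differed between the day 1 populations, by edgeR's test of the interaction over the 12 conditions at 48 h with Benjamini-Hochberg adjustment. The adjusted p was 5.5e-06 for ALDH1A2, for which PPS-PM lay below the other PM conditions and PPS-LM above the other LM conditions. It was 7.4e-05 for RARG, which was highest from PPS in PM medium and from DE(a) in LM medium, and 0.000431 for CYP26A1, which differed most between populations in LM medium. For RARB it was 0.00389, with its highest levels in DE(b) medium from DE(a) and APS. CRABP2 was flagged at 0.0134, its populations differing in DE(b) but little in PM and LM medium, and this call was lost without DE(a)-DE(b) replicate 2 (adjusted p 0.12). DHRS3 was flagged at 0.0383, with its highest level in PPS-PM, and this call was lost without any 1 of 15 libraries.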

How the results depend on the processing

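Of 320 tests of the 10 genes, 147 were called. No call changed direction under any alternative, 101 were kept under all of them and 46 were lost under at least 1, not counting a minimum fold of 2, which removed 30. With no filter on low counts, calls between neighbouring populations at 24 h went from 5 to 8 and calls against the standard protocols from 17 to 30, and the cause was not tested. Leaving out each library in turn gave 20 to 26 calls at 24 h against the control (26 with all), 3 to 6 between neighbouring populations (5), 65 to 73 at 48 h against 24 h (71), 22 to 24 between media (22), 14 to 18 against the standard protocols (17) and 5 to 6 for the interaction (6). Only the libraries compared gave 59 in place of 71 calls at 48 h against 24 h and 12 in place of 17 against the standard protocols, with fewer samples to estimate the spread. DESeq2 lost 3 of the 147 calls and added 9.

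Replicate numbers were not treated as pairs: over 136 pairs of conditions the replicate differences correlated at -0.34 to 0.69 (median 0.21), above 0.1 in 100 pairs. With the replicate block all 147 calls were kept and 12 were gained, for 26, 6, 77, 25, 19 and 6 calls in the order above. With 2 libraries per condition small differences can be missed, and genes near the floor of 3 counts (CYP26C1 throughout, CYP26A1 in PM medium, ALDH1A2 in DE(b) medium) have folds limited by counting error.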
